A study of Mus musculus with 8 samples.

Results

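The claudins Cldn1, Cldn3, Cldn4, Cldn7, Cldn8 and Cldn10, the tight junction genes Ocln and Tjp1, and the adhesion genes Epcam and Cdh1 were followed in mouse mammary gland after 17β-estradiol (E2). All probe sets annotated to these symbols were taken, which gave 18 probe sets of 10 genes, out of 18193 genes with a probe set of their own on the array. The tissue was the inguinal mammary gland of virgin mice aged 12 to 13 weeks. Mice of every group, vehicle included, had been gonadectomized, which takes away the gonads as a source of estrogen. E2 had been given under the skin at 6 intervals before collection, namely 1, 3 or 6 h and 12, 18 or 24 h (1 array per time), and 2 groups were given vehicle (vehicle 1 and vehicle 2, 1 array each). The times are those of the sample titles, whereas every description reads 24 h, a conflict that the labels do not settle. The dose is given with 2 units that contradict each other and is not stated here, and the sources used here do not say how many mice stand behind an array.

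Tight junctions seal the space between neighbouring epithelial cells. Claudins are membrane proteins that form their strands and set which ions and solutes can pass, occludin is a further strand protein, and the scaffold protein encoded by Tjp1 ties the strands to the actin cytoskeleton. E-cadherin, encoded by Cdh1, holds epithelial cells together at adherens junctions, and EpCAM is a surface glycoprotein of epithelial cells that binds and stabilises claudins in the gut. In the mammary gland these proteins are made mainly by the ductal and alveolar epithelium, which lies in a large pad of fat, and tight junctions there close at the onset of lactation.

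Cldn3 and Cldn4 lie side by side on mouse chromosome 5, in the order Mettl27, Cldn4, Cldn3, Abhd11 and Stx1a among protein-coding genes, and their profiles over the time course differed as described below. The 250 bases before the annotated start of each gene are shown for that reason, from RefSeq assembly GRCm38.p6, at chr5:134985964-134986213 on the plus strand for Cldn3 and at chr5:134946935-134947184 on the minus strand for Cldn4, each written 5′ to 3′ in the direction of the gene. Capitals mark matches, on either strand, to GGTCA (a single arm of the estrogen receptor motif), CACCTG (an E-box), GGGCGG (a GC box) and TGAGTCA (an AP-1 motif). The full estrogen response element, with both arms, and AACCGGTT (a Grainyhead motif) were searched too and had no match in either window.
Cldn3: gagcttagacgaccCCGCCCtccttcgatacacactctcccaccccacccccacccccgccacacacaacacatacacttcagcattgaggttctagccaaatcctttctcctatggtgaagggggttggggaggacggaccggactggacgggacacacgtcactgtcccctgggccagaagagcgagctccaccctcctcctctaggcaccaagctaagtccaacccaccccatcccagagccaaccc
Cldn4: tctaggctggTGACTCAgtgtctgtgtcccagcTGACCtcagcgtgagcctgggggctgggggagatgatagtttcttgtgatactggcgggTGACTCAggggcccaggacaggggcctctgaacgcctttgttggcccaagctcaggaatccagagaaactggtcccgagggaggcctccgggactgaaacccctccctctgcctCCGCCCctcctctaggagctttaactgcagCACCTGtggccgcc
The Cldn3 window held 1 GC box, 236 bases before the start. The Cldn4 window held 1 single arm at 217 bases, 2 AP-1 motifs at 240 and 158 bases, 1 GC box at 44 bases and 1 E-box at 14 bases before the start. Of 32851 promoter windows of the same length, 35.2% held the single arm, 32.7% the GC box, 17.2% the E-box, 4.46% the AP-1 motif, 0.116% the Grainyhead motif and 0.0639% the full element. A match describes the letters only. RefSeq promoter windows were at hand for 8 of the 10 genes.

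Values are the deposited intensities of each probe set, a relative scale within which only the same probe set can be compared between arrays. Array medians lay between 173.9 and 180.5. Probe sets were tested where their mean log2 value reached the 40th percentile (6.97, an intensity of 125), which kept 27022 of 45037. Of the 18 probe sets, 13 of 9 genes passed and 5 did not, namely 3 of Cldn1 and both of Ocln. Both vehicle arrays were labelled 24 h, so from 1 to 18 h E2, the injection and the hour of collection cannot be told apart. Over all 45037 probe sets, before this filter, the SD of the log2 difference between the vehicle arrays was 0.136.

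Cldn3 encodes a barrier-forming claudin, and its arrays lay lowest at 3 and 6 h and highest at 18 and 24 h. Its brightest probe set (1434651_a_at) read 927 and 935 in vehicle 1 and vehicle 2, and 857, 715, 722, 1007, 1076 and 1056 at the 6 times from 1 to 24 h. All 3 arrays from 1 to 6 h lay below both vehicle arrays and all 3 from 12 to 24 h lay above them. The same held for the other 3 Cldn3 probe sets. Probe set 1451701_x_at read 443 and 466 in the vehicle arrays and 419, 307, 339, 477, 523 and 552 at the 6 times. Probe set 1460569_x_at read 403 and 388 in the vehicle arrays and 365, 257, 286, 449, 457 and 461 at the 6 times. The dimmest, 1426332_a_at, read 212 and 215 in the vehicle arrays and 206, 156, 146, 218, 252 and 263 at the 6 times. The 4 probe sets measure 1 gene and are not independent, and the names ending in x_at mark sets with probes that can also match other transcripts. At 3 h the log2 difference to the vehicle mean lay between -0.62 and -0.38 over the 4 sets, and at 6 h between -0.55 and -0.37.

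Cldn8, a claudin known from the kidney for sealing the junction against cations, had the widest profile of the 13 tested probe sets. Probe set 1449091_at read 275 and 256 in vehicle 1 and vehicle 2, and 212, 117, 209, 355, 402 and 320 at the 6 times from 1 to 24 h. The 3 h array stood at 44.0% of the vehicle mean and the 18 h array at 151.9%. The groups did not overlap, with the arrays from 1 to 6 h below and those from 12 to 24 h above both vehicle arrays. Its range over the 8 arrays was 1.79 on the log2 scale, wider than in 99.9% of the 27022 tested probe sets.

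**Figure D1:**
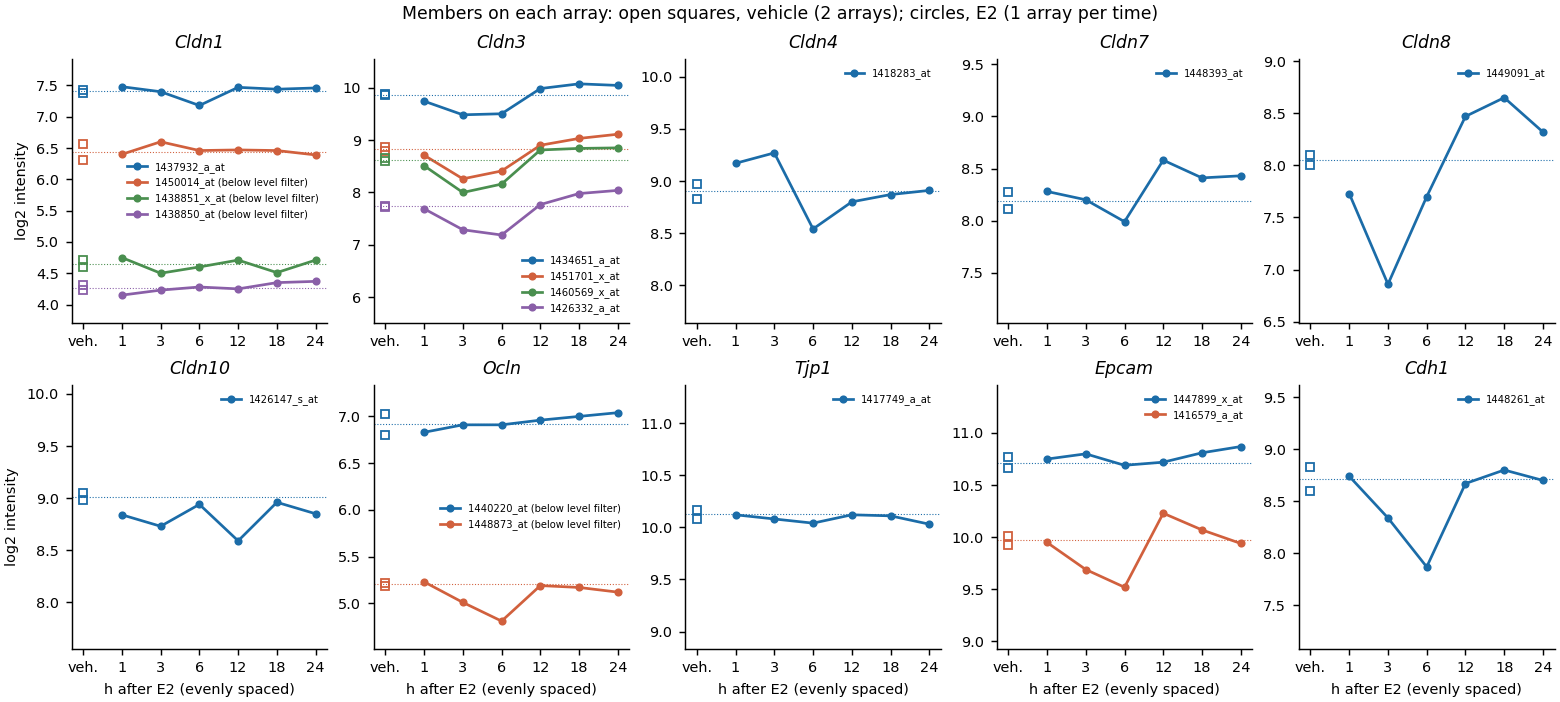
Log2 intensity (y axis) of all 18 probe sets on each of the 8 arrays, 1 panel per gene, with vehicle (open squares, 2 arrays, dotted line at their mean) and E2 at 1 to 24 h (circles, 1 array per time, evenly spaced). The 4 Cldn3 probe sets and Cldn8 lie below the vehicle arrays from 1 to 6 h and above them from 12 to 24 h, and Cdh1 is lowest at 6 h. Levels cannot be compared between probe sets.

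Cldn4, a barrier claudin of many epithelia, had another profile than its neighbour Cldn3. Probe set 1418283_at read 503 and 455 in vehicle 1 and vehicle 2, and 577, 618, 373, 447, 469 and 480 at the 6 times from 1 to 24 h. It was thus above both vehicle arrays at 1 and 3 h (129.1% of the vehicle mean at 3 h) and below both at 6 h (77.9%), and the 18 and 24 h arrays lay between the vehicle arrays. Over the 3 arrays from 1 to 6 h these opposite values averaged to a log2 difference of 0.09 ± 0.170 (SE) to vehicle.

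Cldn7, found along the lateral membrane of epithelial cells and a binding partner of EpCAM, was higher from 12 h on. Probe set 1448393_at read 309 and 277 in vehicle 1 and vehicle 2, and 311, 293, 255, 384, 340 and 344 at the 6 times from 1 to 24 h. All 3 arrays from 12 to 24 h lay above both vehicle arrays, with 131.3% of the vehicle mean at 12 h, while the 1 to 6 h arrays overlapped them.

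Cldn1 lay near vehicle at most times and Cldn10 below it. Cldn1, a barrier claudin that the skin needs to hold water, had 1 probe set above the level filter (1437932_a_at), which read 173 and 167 in the vehicle arrays and 179, 169, 145, 177, 173 and 176 at the 6 times. Its other 3 probe sets were dim and ranged from 79.5 to 97.3, from 22.6 to 26.8 and from 17.8 to 20.7 over the 8 arrays. Cldn10, whose isoforms form ion-selective pores in kidney and glands, read 506 and 528 in the vehicle arrays (1426147_s_at) and 459, 425, 492, 385, 497 and 462 at the 6 times. Each of the 6 E2 arrays was below both vehicle arrays, with the lowest at 12 h (74.4% of the vehicle mean).

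The other tight junction genes showed little spread. Tjp1, which is also made by endothelial and stromal cells, read 1085 and 1152 in the vehicle arrays (1417749_a_at) and 1111, 1083, 1056, 1116, 1104 and 1044 at the 6 times. Its range of 0.14 on the log2 scale was narrower than in most probe sets, with 11.2% of them narrower still. Ocln was below the level filter. Its brighter probe set (1440220_at) read 131 and 112 in the vehicle arrays and between 114 and 132 over the 6 E2 arrays, within the vehicle values apart from 132 at 24 h. The dimmer one (1448873_at) read 37.2 and 36.6 in the vehicle arrays and was lowest at 6 h with 28.1, a level at which no call was made.

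Cdh1 was lowest at 6 h. Probe set 1448261_at read 387 and 457 in vehicle 1 and vehicle 2, and 428, 325, 234, 407, 446 and 415 at the 6 times from 1 to 24 h. The 3 and 6 h arrays lay below both vehicle arrays, with 55.5% of the vehicle mean at 6 h, and the other 4 E2 arrays lay between the vehicle arrays. The vehicle arrays themselves differed by 0.24 on the log2 scale. The 2 probe sets of Epcam went different ways. Probe set 1416579_a_at read 974 and 1028 in the vehicle arrays and 990, 825, 733, 1199, 1077 and 983 at the 6 times, with the lowest value at 6 h (73.2% of the vehicle mean) and the highest at 12 h (119.8%). Probe set 1447899_x_at, the brighter one, read 1747 and 1615 in the vehicle arrays and 1722, 1787, 1656, 1681, 1801 and 1870 at the 6 times. The 3 and 6 h arrays of the first set were below both vehicle arrays, and those of the second were not, so no direction was given for the gene at these times.

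**Figure D2:**
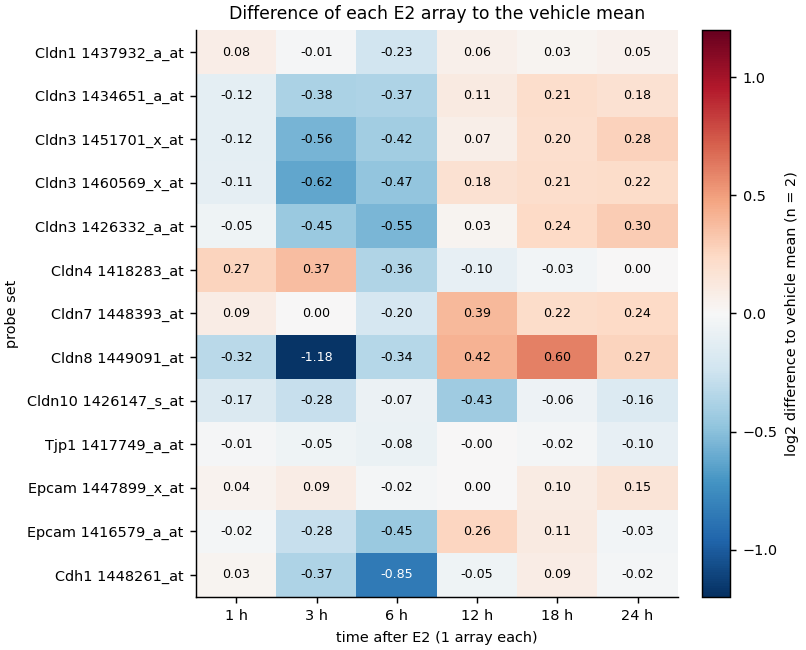
Log2 difference of each E2 array (columns, 1 array per time) to the mean of the 2 vehicle arrays, for the 13 tested probe sets (rows), in blue where lower and red where higher. The strongest differences are -1.18 for Cldn8 at 3 h and -0.85 for Cdh1 at 6 h, and every row is below 0 at 6 h.

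Of the 13 probe sets, 12 (of 9 genes) lay below both vehicle arrays at 6 h, against 31.8% of all tested probe sets, and the exception was 1447899_x_at of Epcam. The differences of Tjp1 (-0.08), Cldn10 (-0.07) and that Epcam set (-0.02) were smaller than the SD of 0.136 between the vehicle arrays. On the same array the mean log2 difference of skeletal muscle markers was at its highest (1.26). At 3 h 9 (of 6 genes) lay below both, against 29% of all. At 12 h 8 lay above both, against 33.5%, at 18 h 9, against 31%, and at 24 h 8, against 32.1%, of 5 genes each time. All Cldn3 sets, which measure 1 gene, are in each of these counts. With each gene taken at its brightest probe set, the median log2 difference at 6 h was -0.23 over the 9 genes (from -0.85 to -0.02), beside 0.007 over all tested probe sets. The median range over the 8 arrays was 0.59 for the 9 genes and 0.241 for all tested probe sets. The counts describe 1 array per time and carry no test.

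Single times were described by probe sets at least 1.5-fold from both vehicle arrays, without a replicate check. At 3 h 2 member probe sets were lower by this rule, Cldn8 and 1460569_x_at of Cldn3, where 0.196% of all tested probe sets were. At 6 h 1 was, Cdh1, where 0.148% of all were. None was higher at any time and none was lower at 1, 12, 18 or 24 h. With 1 array per time no p-value is given for a single time. All adjusted p-values below are from limma with Benjamini-Hochberg adjustment over the 27022 tested probe sets. Nothing in the labels shows whether the spread they rest on is biological or technical. Where a group joins several times, its arrays are not replicates of 1 condition. The spread then also holds any change between those times, which widens the SE of a probe set that moves within the group.

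The arrays were next compared as an early window (1, 3 and 6 h, n = 3), a late window (12, 18 and 24 h, n = 3) and vehicle (n = 2). Cldn3 was higher in the late window than in the early one. Its brightest probe set averaged 10.03 ± 0.0492 late and 9.57 ± 0.147 early (log2, SD), a difference of 0.46 ± 0.0696 (SE, adjusted p = 0.0413 in limma). The other 3 sets differed by 0.61 ± 0.105 (1460569_x_at, adjusted p = 0.0498), 0.55 ± 0.102 (1451701_x_at, adjusted p = 0.0594) and 0.54 ± 0.118 (1426332_a_at, adjusted p = 0.0931). Thus 2 of the 13 probe sets passed, both of Cldn3 and both higher, where 0.311% of all tested probe sets passed and 0.159% were higher. The call for the brightest set held without the 1 h array (adjusted p = 0.00205) and was lost on leaving out any other array (adjusted p from 0.053 without vehicle 2 to 0.209 without 18 h), while the difference stayed between 0.41 and 0.54.

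Cldn8 averaged 8.48 ± 0.166 late and 7.43 ± 0.492 early, the largest difference of the 13 (1.05 ± 0.193), and missed the threshold (adjusted p = 0.0594). It passed without the 1 h array (1.2, adjusted p = 0.0168), the 3 h array (0.76, adjusted p = 0.0364) or the 6 h array (1.18, adjusted p = 0.0453). It did not pass without vehicle 1 (adjusted p = 0.0823), vehicle 2 (0.0821), the 12 h array (0.0809), the 18 h array (0.272) or the 24 h array (0.14), nor with robust empirical Bayes (0.149). Cldn7 differed by 0.32 ± 0.0837 (adjusted p = 0.145), 1416579_a_at of Epcam by 0.36 ± 0.104 (adjusted p = 0.169) and Cdh1 by 0.40 ± 0.171 (adjusted p = 0.289). All 3 late arrays lay above all 3 early arrays for 6 of the 13 probe sets, the 4 of Cldn3, Cldn7 and Cldn8, where 9.19% of all tested probe sets did.

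Against vehicle, 0 of the 13 probe sets passed in either window. In the early window 0.0037% of all tested probe sets passed (1420 of them had an unadjusted p below 0.05), and in the late window 0% (2080 at an unadjusted p below 0.05). The 1 probe set that passed early was of Krt10, an epidermal keratin gene, and was higher. The early difference was -0.29 ± 0.0778 for the brightest Cldn3 set (adjusted p = 0.628), -0.62 ± 0.216 for Cldn8 (adjusted p = 0.833) and -0.40 ± 0.191 for Cdh1 (adjusted p = 0.96). The late difference was 0.43 ± 0.216 for Cldn8 (adjusted p = 0.653), 0.28 ± 0.0936 for Cldn7 (adjusted p = 0.628) and 0.17 for the brightest Cldn3 set (adjusted p = 0.651). Early arrays were all below vehicle for 6 probe sets (4 of Cldn3, Cldn8 and Cldn10), where 7.36% of all were, and late arrays all above it for 7 (4 of Cldn3, Cldn1, Cldn7 and Cldn8), where 11.3% of all were. Both at once relative to the vehicle mean, all early arrays below and all late arrays above, held for 5 probe sets (4 of Cldn3, Cldn8), where 2.69% of all had it.

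**Figure D3:**
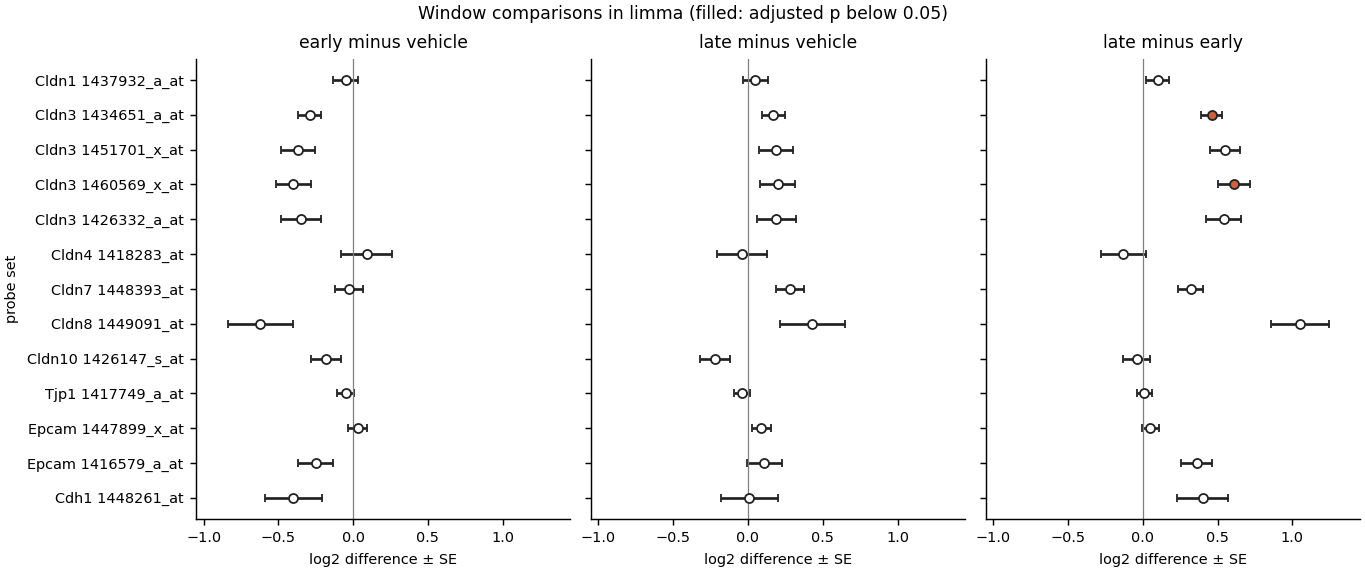
Log2 difference with its SE (x axis) for the 13 tested probe sets (rows) in limma, for early minus vehicle, late minus vehicle and late minus early (n = 3 early, 3 late and 2 vehicle arrays). Filled points, the Cldn3 sets 1434651_a_at and 1460569_x_at in late minus early, have an adjusted p below 0.05.

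The arrays at 3 and 6 h were also set against vehicle in a limma fit with 5 groups (vehicle, 1 h, 3 and 6 h, 12 h, 18 and 24 h), an alternative to the windows. This grouping was chosen with earlier results of these arrays known, so its p-values are not independent of the pattern in the values above. All 4 Cldn3 probe sets were lower at 3 and 6 h than in vehicle and passed in this fit. The difference was -0.37 ± 0.0521 for 1434651_a_at (adjusted p = 0.0199), -0.49 for 1451701_x_at (adjusted p = 0.0231), -0.54 for 1460569_x_at (adjusted p = 0.0152) and -0.50 for 1426332_a_at (adjusted p = 0.0199). Of all tested probe sets 0.577% passed in this comparison and 0.222% were lower. Epcam 1416579_a_at (-0.36 ± 0.0751, adjusted p = 0.0955), Cdh1 (-0.61 ± 0.143, adjusted p = 0.143) and Cldn8 (-0.76 ± 0.226, adjusted p = 0.282) did not pass. The call for 1434651_a_at was lost without vehicle 1 (adjusted p = 0.1), vehicle 2 (0.108), the 3 h array (0.0631), the 18 h array or the 24 h array (0.0743 each), with the difference between -0.38 and -0.37.

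At 18 and 24 h no Cldn3 set passed against vehicle in the same fit, with differences from 0.20 to 0.27 (adjusted p from 0.253 to 0.286). At 18 and 24 h set against 3 and 6 h, 6 of the 13 probe sets, of 3 genes, passed and were higher, where 1.68% of all tested probe sets passed and 0.714% were higher. The 4 Cldn3 sets were higher by 0.57 to 0.77 (adjusted p from 0.00263 to 0.00332), Cldn8 by 1.2 ± 0.226 (adjusted p = 0.0416) and 1416579_a_at of Epcam by 0.41 ± 0.0751 (adjusted p = 0.0396). Cdh1 differed by 0.64 ± 0.143 and did not pass (adjusted p = 0.0668). Without the 18 h array 1434651_a_at of Cldn3 missed the threshold, with a difference of 0.56. Without the 24 h array 1451701_x_at of Cldn3 missed it, with a difference of 0.69. The Cldn8 call was lost without either vehicle array (adjusted p = 0.0708 and 0.0705), the 18 h array (0.253) or the 24 h array (0.157), and the Epcam call without either vehicle array (0.057 and 0.0568), the 6 h array (0.0926), the 18 h array (0.276) or the 24 h array (0.154).

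Markers of luminal epithelium were set beside these genes. In bulk tissue fewer cells of a type and less RNA per cell cannot be told apart. The mean log2 difference to vehicle of the luminal keratins Krt7, Krt8, Krt18 and Krt19 was -0.06, -0.41, -0.02, 0.76, 0.47 and 0.39 at the 6 times from 1 to 24 h. The brightest Cldn3 set minus this mean was -0.06, 0.03, -0.35, -0.65, -0.26 and -0.21 at the 6 times. The same subtraction gave -0.26, -0.78, -0.33, -0.34, 0.13 and -0.12 for Cldn8, and 0.09, 0.04, -0.83, -0.81, -0.39 and -0.41 for Cdh1. At 3 h the other Cldn3 sets minus the keratin mean were -0.15 (1451701_x_at), -0.21 (1460569_x_at) and -0.04 (1426332_a_at), and the keratins were split, with Krt7 at 0.14 and the other 3 between -0.66 and -0.54. At 6 h the keratin mean was close to vehicle, and Cldn3, Cldn8 and Cdh1 were below it. With the keratin mean as a covariate the late minus early difference of Cldn3 was 0.41 (adjusted p = 0.477), and that of Cldn8 was 0.20 (adjusted p = 0.843). The keratin mean was itself below vehicle on every early array and above it on every late array. The fit therefore cannot separate it from the windows.

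**Figure D4:**
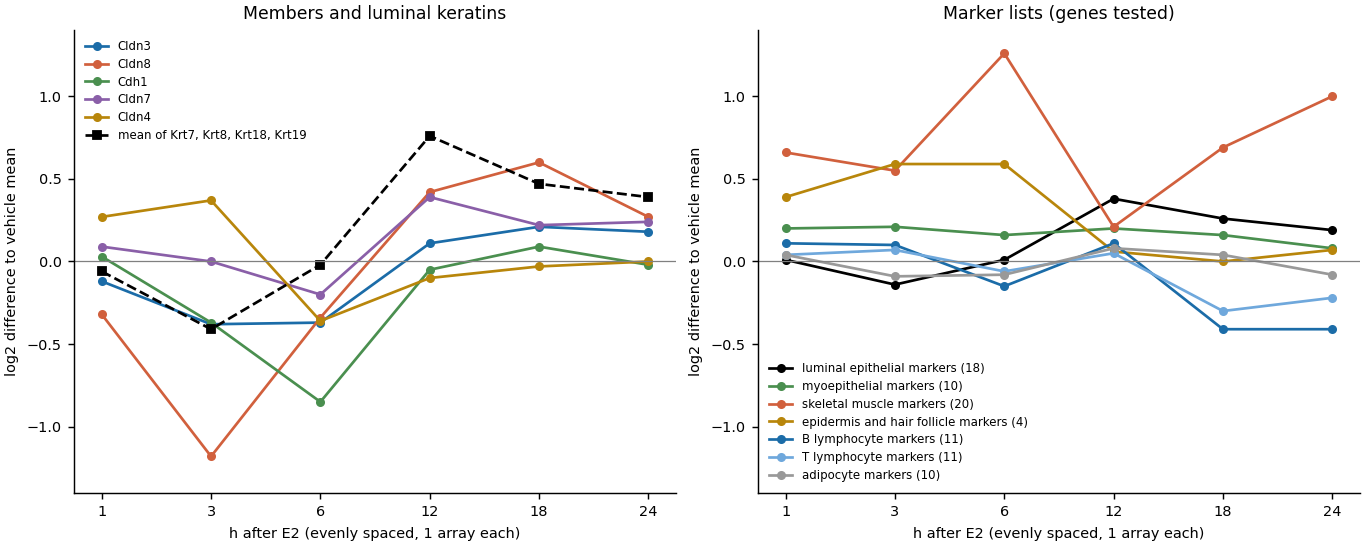
Log2 difference to the vehicle mean (y axis) at each time after E2 (x axis, evenly spaced, 1 array each), on the left for Cldn3 (1434651_a_at), Cldn8, Cdh1, Cldn7, Cldn4 and the mean of 4 luminal keratins, on the right for the means of 7 marker lists with the number of genes tested in brackets. Cldn8 is lowest at 3 h and Cdh1 at 6 h, where the keratin mean is -0.02, and skeletal muscle markers are high at 6 h (1.26).

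Over the whole luminal list, 18 of 18 markers were tested, 9 higher and 9 lower early than in vehicle (median -0.01) and 17 higher and 1 lower late (median 0.29). Their mean log2 difference at 3 h was -0.14 and at 6 h 0.01. Their summed intensity ranged from 13087 to 13974 in the vehicle arrays, from 11131 to 13706 early and from 15382 to 19091 late. Late against early, 2 of the 18 passed and were higher, Krt8 and Ltf. At 18 and 24 h against 3 and 6 h, 5 passed and were higher, namely Krt8, Krt18, Krt19, Ltf and Cd24a. A rise in these comparisons was thus not particular to the members. No luminal marker passed at 3 and 6 h against vehicle. Of 6 hormone-sensing luminal genes tested, 5 were lower and 1, Pgr, higher early, with mean log2 differences of -0.26, -0.41, -0.46, -0.1, 0.07 and -0.05 at the 6 times. Among them Foxa1, the gene of a pioneer factor for the estrogen receptor, had -2.63 at 3 h, the transcriptional coregulator gene Cited1 had -2.02 at 6 h and the estrogen receptor gene Esr1 had -0.99 at 6 h. None of these 3 passed at 3 and 6 h against vehicle in the fit with 5 groups. Of this list only Pgr did, and it was higher. At 18 and 24 h against 3 and 6 h, Pgr and Cited1 passed in the same fit, 1 higher and 1 lower. Skeletal muscle markers (20 of 22 tested) summed, over all 22, to 15329 to 19689 in the vehicle arrays, 26314 to 39174 early and 20251 to 32295 late. The tested ones were on average above the vehicle mean at every time, most at 6 h (mean log2 difference 1.26). Epidermis and hair follicle markers (4 of 11 tested, the defining Krt1, Flg, Ivl, Krtdap, Krt25, Tchh and Dsg1a being below the level filter) summed, over all 11, to 1852 to 2014 in vehicle, 2336 to 2792 early and 1951 to 2165 late. The 4 tested had mean log2 differences of 0.39, 0.59, 0.59, 0.06, 0.0 and 0.07 at the 6 times. In the fit with 5 groups Krt10 was higher at 3 and 6 h than in vehicle and passed. Krt10 and Lor were lower at 18 and 24 h than at 3 and 6 h and passed. The part of these tissues in the results was not tested beyond covariate fits with muscle or with the keratins. No fit had an epidermis covariate. The 3 and 6 h difference of Cldn3 to vehicle is given first. With muscle, 1451701_x_at (-0.60, adjusted p = 0.0446) and 1460569_x_at (-0.68, adjusted p = 0.0201) still passed, while 1434651_a_at (-0.37, adjusted p = 0.119) and 1426332_a_at (-0.45, adjusted p = 0.166) did not. With the keratins none of the 4 passed (adjusted p from 0.0635 to 0.139). The 3 and 6 h difference of Cdh1 was -0.61 without a covariate and -0.14 with muscle. That of Epcam 1416579_a_at went from -0.36 to -0.16 with muscle, and that of Cldn8 from -0.76 to -1.29. All 20 tested muscle markers were higher than in vehicle in both windows and at 3 and 6 h. A fit with muscle therefore cannot separate it from a comparison with vehicle. Myoepithelial markers (10 of 11 tested) had mean log2 differences from 0.08 to 0.21, adipocyte markers (10 tested) from -0.09 to 0.08 and endothelial markers (10 tested) from -0.10 to 0.05. B cell markers (11 tested) averaged -0.41 at 18 and at 24 h, and T cell markers (11 tested) -0.30 and -0.22.

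The other genes of these junctions were described as lists, each gene at its brightest probe set. Of 5 other claudins tested, 3 were higher and 2 lower in the early window than in vehicle and 4 were higher and 1 lower in the late window, none past the threshold against vehicle, with Cldn15 at 0.14 early and 0.13 late and Cldn22 at -0.23 early and 0.09 late. Of 22 tight junction plaque and partner genes, 8 were higher and 14 lower early (median -0.02, beside 0.006 over all tested probe sets) and 11 were higher and 11 lower late, again none past the threshold against vehicle. Among them the virus receptor gene Cxadr, which encodes a tight junction adhesion protein, differed by -0.13 early and 0.11 late.

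Of 17 adherens junction genes, 10 were higher and 7 lower early, and 7 were higher and 10 lower late. Nectin3, which encodes an adhesion protein of adherens junctions, fell in the late window relative to the early one (adjusted p = 0.0418), with -0.32 in the late window relative to vehicle. The mesenchymal cadherin gene Cdh11 had 0.40 early and 0.11 late and was lower at 18 and 24 h than at 3 and 6 h (adjusted p = 0.0461). Of 9 desmosome genes none passed, and Perp, which encodes a desmosome membrane protein, had 0.50 early and 0.18 late.

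Among 10 surface proteases and their partners, Tmprss2, a transmembrane serine protease gene, fell by 1.29 on the log2 scale at 3 and 6 h (adjusted p = 0.00268), with -0.93 in the early window and -0.28 in the late one, and St14, the gene of the protease matriptase, had 0.05 early and 0.26 late. None of the 12 epithelial identity factors passed, with the Grainyhead factor gene Grhl1 at -0.29 early and -0.19 late, the alveolar factor gene Elf5 at 0.17 early and 0.25 late, and its relative Ehf at 0.11 early and 0.23 late. The last list held 8 transcription repressors known to silence Cdh1 and claudins in epithelial-mesenchymal transition. At 3 and 6 h 3 of them were higher and 5 lower than in vehicle (median -0.01). Only Snai2 passed, and it was higher (0.45 at 3 h and 0.35 at 6 h, adjusted p = 0.0231). It was lower at 18 and 24 h than at 3 and 6 h (adjusted p = 0.0061). Snai1 had 0.27 early and 0.08 late, and Zeb1 -0.03 early and -0.11 late.

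The genes whose profile was most like the members' were found by Pearson's r over the 8 arrays with the mean of the 9 tested genes, each scaled to its own mean and SD. This mean was 0.18 and 0.10 in the vehicle arrays and 0.21, -0.41, -1.24, 0.19, 0.61 and 0.36 at the 6 times. Of 13272 genes, those with the highest r were Dach1 (0.986), Dhrs3 (0.977), Ptgr2 (0.975), Elovl7 (0.974) and Ralgapa2 (0.973). Dach1 encodes a transcription factor, Dhrs3 a retinaldehyde reductase, Ptgr2 a prostaglandin reductase, Elovl7 a fatty acid elongase and Ralgapa2 a subunit of a GTPase-activating complex. The 8 points share 1 hybridisation per time and tissue makeup, so r is a description.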

How the data were processed

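Transcript levels were measured on 1-colour Affymetrix arrays, 8 in all, from Trizol RNA made into biotin-labelled cRNA, per the labels' protocols. The deposited values are linear intensity per probe set (13.8 to 23591), which the authors had brought to a common scale. GCOS 1.0 and RMA appear in the submitters' processing notes, with no role given. Log2 was taken with no further normalization. Control probe sets (64) were left out, and genes were named from the platform annotation, in which 34945 probe sets had 1 symbol, 932 several and 9160 none. Of these 34945, 34741 matched RefSeq GRCm38.p6. Linear models on all 8 arrays used limma 3.58.1 (R 4.3.3) with trended empirical Bayes, with 3 windows as the main fit and 5 groups as an alternative (7 group means were also fitted, and their p-values are not used since each time has 1 array), and calls required an adjusted p below 0.05 (two-sided). Fits were tested on simulated data. All member probe sets are reported, from other lists the 2 genes with the largest difference per window could be named. Members and lists were chosen with earlier results of these data known. Depth does not apply, and the number of arrays limits the precision.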

Additional observations from a re-analysis of the deposited data

Results flagged for a closer look

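For 5 probe sets every early array (1, 3 and 6 h) was below the vehicle mean and every late array (12, 18 and 24 h) above it. Against vehicle none of the 5 passed in either window, so only this order of the arrays is described. The late minus early difference on the log2 scale was 0.46 for Cldn3 1434651_a_at (limma adjusted p = 0.0413), 0.61 for 1460569_x_at (0.0498), 0.55 for 1451701_x_at (0.0594) and 0.54 for 1426332_a_at (0.0931), and 1.05 for Cldn8 1449091_at (0.0594). Of all tested probe sets 2.69% had this pattern.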

How the results depend on the processing

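Each choice was varied singly. The tally below took the brightest probe set of each tested gene and 1416579_a_at of Epcam, and left out the other Cldn3 sets. Of these single log2 differences under the alternatives, 581 kept their direction and side of the threshold, 35 lost and 16 gained a call, and 24 turned sign. No paired analysis was possible because only the 2 vehicle arrays carry replicate numbers. Array weights were not run in the fit with 5 groups. The causes of the shifts below were not tested.

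Late against early, 84 probe sets passed, against 23 after quantile normalization, 23 with probe sets averaged per gene, 10 with no trend, 2564 with array weights, 956 with a skeletal muscle covariate, 1 with a luminal keratin covariate, 403 with 5 groups and 1 to 403 when any 1 array was left out. Member genes called, 1 (Cldn3), became 0 with arrays centred on the median, with probe sets averaged per gene, with no trend and with the keratin covariate, 2 with the muscle covariate, 3 with 5 groups, 4 with array weights, and 0 to 4 on leaving out 1 array. At 3 and 6 h against vehicle, 156 passed, against 63 with 1 probe set per gene, 46 with probe sets averaged per gene, 101 with the keratin covariate and 35 to 327 on leaving out 1 array, and member genes called, 1, became 0 with the keratin covariate and 0 to 2 on leaving out 1 array. At 18 and 24 h against 3 and 6 h, 453 passed, against 290 with 1 probe set per gene, 172 with probe sets averaged per gene, 1452 with muscle, 4 with the keratin covariate and 36 to 670 on leaving out 1 array. Member genes called there, 3, became 1 with probe sets averaged per gene and with no trend, 0 with the keratin covariate and 1 to 4 on leaving out 1 array, and the Cldn8 difference of 1.2 turned to -0.065 with the keratin covariate.

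Early against vehicle, 1 probe set passed, against 2 with no level filter, 0 with a filter at the 60th percentile, 0 with 1 probe set per gene, 13 with the muscle covariate, 59 with 5 groups and 0 to 130 on leaving out 1 array (130 without 1 h). Member genes called there, 0, became 1 (Cldn3) without the 1 h array and stayed 0 without any other. Small early differences turned sign. With the muscle covariate they were 0.064 for Cldn1, 0.12 for Cldn7, 0.034 for Tjp1, -0.006 for Epcam 1447899_x_at and 0.015 for 1416579_a_at. With the keratin covariate they were -0.04 for Cldn4 and -0.019 for 1447899_x_at, and the mean of the Epcam probe sets was -0.11. On leaving out 1 array they ranged from -0.12 to 0.034 for Cldn1, from -0.045 to 0.32 for Cldn4, from -0.12 to 0.048 for Cldn7 and from -0.022 to 0.091 for 1447899_x_at.

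Late against vehicle, 0 probe sets passed, and 1 with the keratin covariate. Late differences turned to 0.16 with muscle and 0.4 with the keratin covariate for Cldn4, to -0.22 with the keratin covariate for Cldn8 and -0.075 for Epcam 1416579_a_at, to 0.021 with muscle for Tjp1 and to -0.011 with median centring for Cdh1. On leaving out 1 array they ranged from -0.11 to 0.03 for Cldn4, from -0.084 to 0.003 for Tjp1 and from -0.11 to 0.13 for Cdh1. At single times, 2 probe sets at 3 h became 1 at a 2-fold limit and 5 at the lower limit tried, 1 at 6 h became 0 at 2-fold and 6 at the lower limit, 0 at 12 h became 2 at the lower limit, and 0 at 18 h became 1 at the lower limit, 1 after quantile normalization and 0 to 1 without 1 vehicle array.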
